A study of Mus musculus with 8 samples.

Results

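The subunits of the oxidative phosphorylation (OXPHOS) machinery were followed by RNA-seq in the livers of female mice, 4 in the Con-Veh and 4 in the Con-DHT group, with a library for each animal. The members are protein-coding mouse genes of the GENCODE M21 annotation, taken by symbols that name subunits of complexes I to V. They are the numbered Ndufa, Ndufb, Ndufc, Ndufs and Ndufv genes, Sdha to Sdhd, the Uqcr genes and Cyc1, the Cox4 to Cox8 genes, the Atp5 genes and the protein-coding genes of mitochondrial DNA (mtDNA). Of 99 such genes, 94 had a row among the 14317 mouse genes of the deposited table, 81 of them encoded in the nucleus and 13 in mtDNA. Those without a row were Cox4i2, Cox6a2, Cox7b2, Cox8c and a second Atp5o identifier, and they were not analysed here. The table lists no gene with fewer than 81 reads over the 8 libraries, and all 94 members passed the filter on low values used below. The symbol rule also takes in genes at the edge of the machinery, such as Cox7a2l, a supercomplex factor, Atp5s, a coupling factor, and Ndufa4, which carries a complex I name but is now placed in complex IV. It leaves out Ndufab1, which also carries a complex I name and was counted with the electron carriers below.

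All 8 mice were females with a floxed androgen receptor gene and no Cre, listed as WT in the labels, so that the receptor was intact in both groups. They received a silastic pellet at 7 weeks of age and were kept on a Western diet (WD) for 8.5 weeks, with fasting overnight at the end. The pellet was empty in Con-Veh and held 10 mm of dihydrotestosterone (DHT), a potent androgen, in Con-DHT. The libraries held between 13123962 and 17815944 reads on mouse genes. The values are normalized read counts (reads divided by a size factor for each library), and spreads are SDs over 4 mice.

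OXPHOS couples the oxidation of NADH and succinate to ATP synthesis in the inner mitochondrial membrane. Complexes I, III and IV pump protons while electrons pass to oxygen, complex II feeds electrons in from succinate, and complex V, the ATP synthase, uses the proton gradient. All complexes but II are mosaics, with a few hydrophobic core subunits transcribed inside the organelle from mtDNA and the rest transcribed in the nucleus and imported, so the 2 genomes have to be expressed together. Hepatocytes are rich in mitochondria and rely on them for fatty acid oxidation, gluconeogenesis and urea synthesis.

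Few OXPHOS transcripts were called as different between Con-Veh and Con-DHT livers. Only 1 of the 81 nuclear members, Cox7a2, and 0 of the 13 mtDNA-encoded members passed the test (limma on log2(value + 1) over 14312 genes, Benjamini-Hochberg adjusted p of at most 0.05), whereas 7.21% of all tested genes passed it, 4.60% higher and 2.61% lower in Con-DHT. The count tests gave the same numbers, with Cox7a2 as the member called and 0 mtDNA-encoded members by edgeR (7.15% of all genes) and by DESeq2 (11.0%). At an unadjusted p of at most 0.05 there were 4 nuclear and 2 mtDNA-encoded members, against 23.2% of all tested genes. For 7 of the 94 members, 4 higher and 3 lower in Con-DHT, no Con-DHT liver reached into the Con-Veh range, against 15.1% of all tested genes (8.49% higher and 6.62% lower).

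Under the deposited scaling, the narrow spread of the nuclear members bounds their change, but these bounds do not include the uncertainty of the scaling itself. Their log2 fold changes (Con-DHT minus Con-Veh, on the log2(value + 1) scale) ran from -0.45 to 0.33 with a median of 0.020, and 47 lay above 0 and 34 below, while the median over all tested genes was -0.0081. The median SD within a group was 0.087 on the log2 scale, against 0.20 for all tested genes. As a result the 95% confidence interval of the change stayed within 1.2-fold in either direction for 49 of 81 nuclear members (60.5%) and for 12.6% of all tested genes. It stayed within 1.5-fold for 76 of 81 (93.8%) and 56.0%. Such narrowness is not particular to OXPHOS genes. For the import, proteostasis and membrane genes described below, the median SD was 0.11, and the shares were 68.2% and 100%. For the assembly factors the SD was 0.15, with 22.2% and 94.4%, and for the cytosolic ribosomal proteins 0.13, with 0% and 93.8%. The median log2 fold change of the ribosomal proteins was -0.28, so their shares also reflect a shift away from 0. The medians of the nuclear members by complex were 0.021 for the 37 of complex I, 0.037 for the 4 of complex II, 0.046 for the 9 of complex III, 0.019 for the 14 of complex IV and 0.012 for the 17 of complex V. These values depend on the scaling of the libraries. Scaling to equal totals that leave out the Mup genes (abundant urinary protein genes of the liver) moved the median over all genes to 0.090 and that of the nuclear members to 0.12, with 3 nuclear members called. Over all tested genes that scaling called 1290, against 1032 under the deposited one. Scaling to the spike-in RNA moved the 2 medians to 0.19 and 0.22, with 0 nuclear members and 637 of all tested genes called. A correction for transcript length and GC content moved them to -0.052 and -0.091. The number of nuclear members above 0 moved with them, to 69 of 81 with equal totals (67 when mtDNA-encoded genes were left out as well), 79 with the spike-ins and 24 with the correction for length and GC content.

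**Figure D1:**
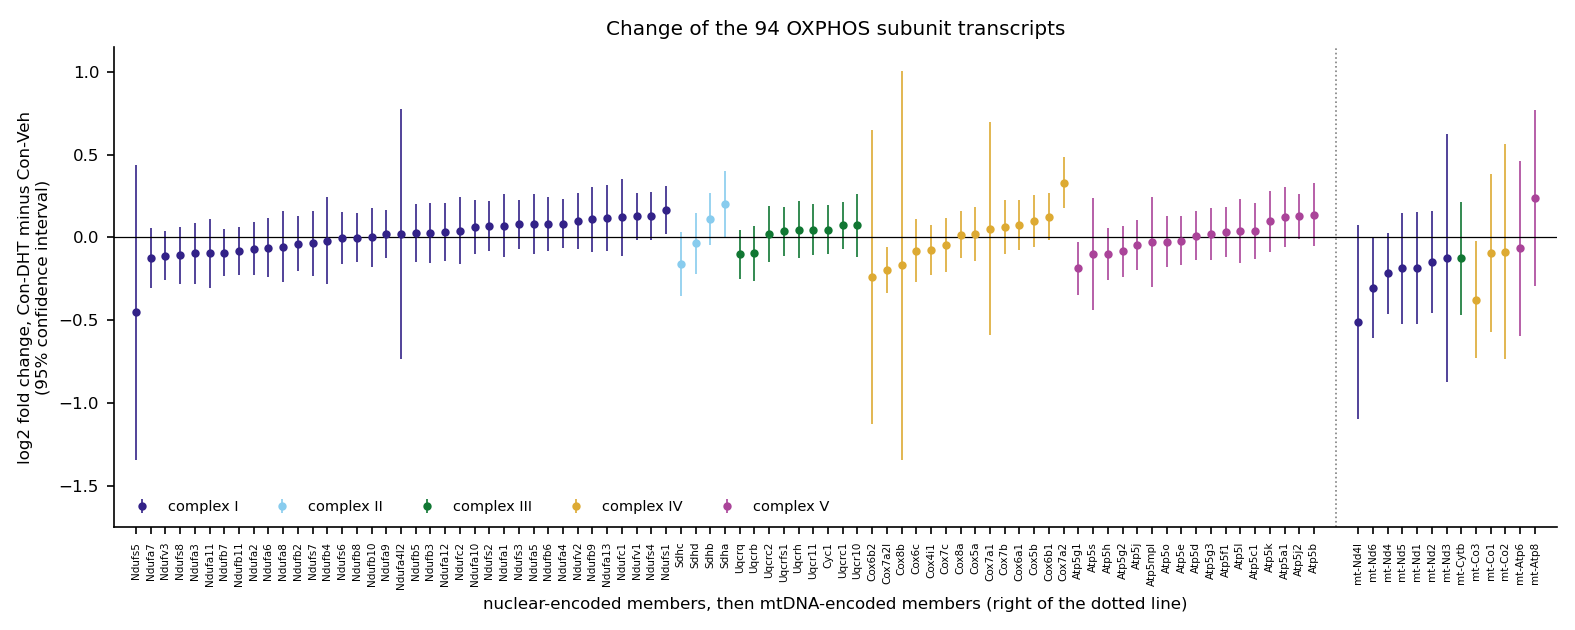
Log2 fold change (Con-DHT minus Con-Veh, n = 4 per group) of the 94 OXPHOS subunit genes with its 95% confidence interval, nuclear members at the left by complex and mtDNA-encoded members at the right of the dotted line. Nuclear points lie around 0, with Cox7a2 at 0.33 as the one that passed the test, and 12 of the 13 mtDNA-encoded points lie below 0 with wider intervals.

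The summed value of the mtDNA-encoded members was above that of the nuclear members in every liver, although 6 of the 13 genes were listed at low values. The median SD within a group was 0.22 on the log2 scale for the 13 genes and 0.17 for the 7 abundant ones, against 0.087 for the nuclear members. The summed mtDNA-encoded value was 507765, 501137, 529330 and 633593 in the 4 Con-Veh livers and 518920, 514529, 437684 and 499305 in the 4 Con-DHT livers, or 542956 ± 61612 against 492610.0 ± 37569. Con-Veh replicate 4 was the highest and Con-DHT replicate 3 the lowest, and the groups overlapped. The summed value of the nuclear members was 146890.0, 146523, 156321 and 153818 in Con-Veh and 149140.0, 160894, 154681 and 157029 in Con-DHT, or 150888 ± 4938 against 155436 ± 4917, also with overlap. The ratio of the mtDNA-encoded to the nuclear sum, which does not change when a library is scaled as a whole, was 3.46, 3.42, 3.39 and 4.12 in Con-Veh and 3.48, 3.198, 2.83 and 3.18 in Con-DHT. Its mean was 3.60 ± 0.350 against 3.17 ± 0.266, a log2 difference of -0.18, with Con-DHT replicate 1 inside the Con-Veh range and the other Con-DHT livers below all Con-Veh livers. Without Con-Veh replicate 4, the highest library, the log2 difference was -0.11, and over the 8 libraries left out in turn it lay between -0.23 and that value.

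**Figure D2:**
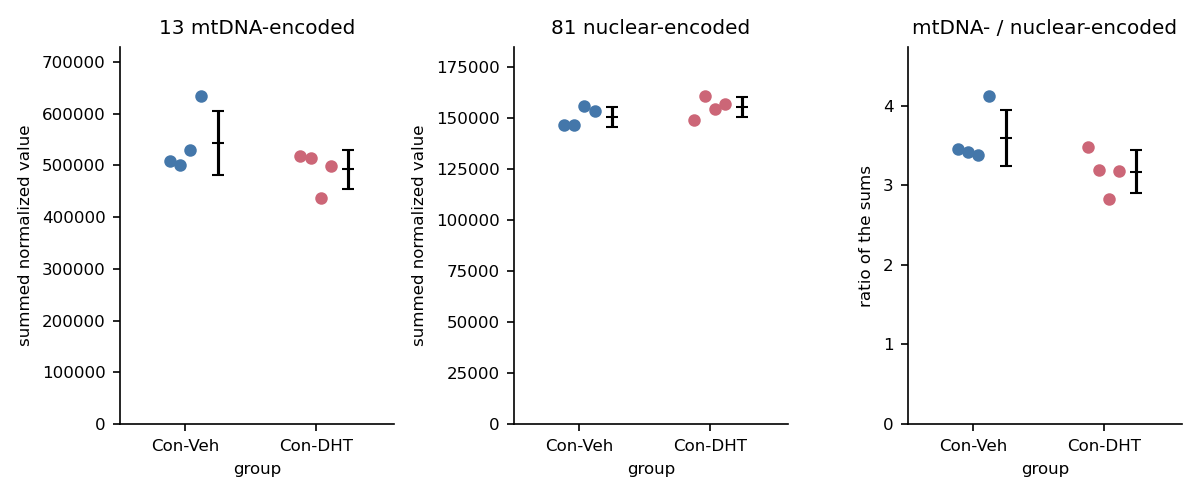
Summed normalized value of the 13 mtDNA-encoded members, of the 81 nuclear members, and the ratio of the sums, each point 1 liver, with the mean and SD of each group in black. The ratio is highest in Con-Veh replicate 4 (4.12) and lowest in Con-DHT replicate 3 (2.83), and the groups overlap in all 3 panels.

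As a share of the reads on mouse genes, the mtDNA-encoded members took 3.53 ± 0.389% in Con-Veh and 3.41 ± 0.283% in Con-DHT. The nuclear members took 0.938, 0.958, 1.04 and 0.992% in Con-Veh and 1.05, 1.09, 1.06 and 1.10% in Con-DHT, so that every Con-DHT liver was above every Con-Veh liver. A share depends on what the other genes of the liver take up, and with the deposited size factors the nuclear sums overlapped. All but 1 of the 13 mtDNA-encoded members had a log2 fold change below 0 under the deposited scaling, with a median of -0.15 and a median SE of 0.16, but 4 of 13 were above 0 with equal totals and 9 of 13 with spike-in scaling. Relative to the median over all genes, the mtDNA-encoded median was -0.14 under each of these scalings, which shift all genes of a library nearly alike and so can hardly move it.

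Along mtDNA, the 13 genes fell into blocks of very different level. For mt-Nd1, a core subunit of complex I, the values were 48716, 49834, 55424 and 68646 in Con-Veh and 50069, 51752, 41148 and 51883 in Con-DHT. For mt-Nd2 they were 58727, 60527, 63579.7 and 74377 in Con-Veh and 61691, 60781, 50956 and 58223 in Con-DHT. In both genes Con-Veh replicate 4 was the highest and Con-DHT replicate 3 the lowest, and the remaining livers of the groups were interleaved. The catalytic subunit of cytochrome c oxidase, mt-Co1, held 41.1% of the summed mtDNA-encoded value on average, at 192534, 205541, 220372 and 261899 in Con-Veh and 217672, 224353, 179546 and 200287 in Con-DHT. Cytochrome b of complex III, mt-Cytb, was at 108183, 102272, 104393 and 121389 in Con-Veh and 101909, 98717, 93354 and 105151 in Con-DHT. Neither gene passed the test (mt-Co1 log2 fold change -0.09, SE 0.21, adjusted p = 0.84; mt-Cytb log2 fold change -0.13, SE 0.15, adjusted p = 0.67).

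The complex I genes at the other end of the molecule were also abundant. For mt-Nd4 the values were 35034, 34457, 35409 and 40803 in Con-Veh and 31305, 32362, 28673 and 33014 in Con-DHT, so that all Con-DHT livers lay below all Con-Veh livers, but the change did not pass the test (log2 fold change -0.22, SE 0.11, adjusted p = 0.28). For mt-Nd5 they were 51851, 39176, 40143 and 53151 in Con-Veh and 46768, 38143, 35515 and 40699.9 in Con-DHT. The only protein-coding gene on the other strand, mt-Nd6, was at 12322, 8685, 9356 and 12556 in Con-Veh and 9079, 7828, 7915 and 9531 in Con-DHT. Both were high in Con-Veh replicates 1 and 4 and overlapped between the groups (log2 fold change -0.31, SE 0.14, adjusted p = 0.21 for mt-Nd6). These 7 genes, all above 5000 in every library, made up nearly all of the summed mtDNA-encoded value (99.87% in the library with the lowest share), and their median log2 fold change was -0.18.

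Between mt-Co1 and mt-Nd4, 6 neighbouring genes were listed below 500 in every library. The values were 23.1, 23.2, 30.9 and 26.1 in Con-Veh and 28.5, 33.9, 26.5 and 13.04 in Con-DHT for mt-Co2, the subunit that takes electrons from cytochrome c. For mt-Atp8, a small subunit of the ATP synthase, they were 13.2, 17.4, 15.97 and 23.5 in Con-Veh and 22.6, 20.3, 20.4 and 18.5 in Con-DHT, and for mt-Atp6, its proton channel subunit, 36.3, 49.2, 58.9 and 68.8 in Con-Veh and 59.8, 54.2, 34.7 and 53.3 in Con-DHT. The groups were interleaved in all 3. For mt-Co3 the values were 106, 139, 126 and 155 in Con-Veh and 100.1, 107, 79.6 and 116 in Con-DHT (unadjusted p = 0.039, log2 fold change -0.38, SE 0.16, adjusted p = 0.19). The complex I genes mt-Nd3 and mt-Nd4l stood at 135, 346, 338 and 403 in Con-Veh and 159, 300.00, 337 and 282 in Con-DHT, and at 85.7, 71.4, 83.9 and 95.7 in Con-Veh and 56.9, 77.4, 80.6 and 32.6 in Con-DHT. Con-Veh replicate 1 and Con-DHT replicate 1 were low for mt-Nd3, Con-DHT replicate 4 was low for mt-Nd4l, and neither gene passed the test. Per kb of transcript, mt-Co2 was at 37.5 and mt-Nd3 at 826, compared with 137719 for mt-Co1 and 24588 for mt-Nd4 on either side.

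The low block coincides with a near-identical copy of mtDNA in the nuclear genome. On chromosome 1 (GRCm38), 7 unprocessed pseudogenes lie in a run of 4663 bases in mtDNA order, on the minus strand. Among the annotated transcripts they match mt-Co2 (Gm28661), mt-Atp6 (Gm10925), mt-Co3 (Gm28437) and mt-Nd4l (Gm10222) at 100% identity over 681 of 684, 678 of 681, 783 of 784 and 294 of 297 bases, and mt-Nd3 (Gm28438) over 345 of 348 bases with 1 difference. The run reaches into both neighbours, with 483 of the 1545 bases of mt-Co1 (Gm29216, 99.8%) and 876 of the 1378 bases of mt-Nd4 (Gm28439, 100%). The gene mt-Atp8 lies between mt-Co2 and mt-Atp6 and has no annotated pseudogene of its own. Its 204 bases gave no match of at least 150 bases to the annotated transcripts of the run, and shorter matches were not kept. The unannotated bases between Gm28661 and Gm10925 were not searched, so whether the copy includes mt-Atp8 was not tested. The authors counted only uniquely mapped reads, so a read that fits mtDNA and this copy equally well was not counted for either. The 6 of these pseudogenes that have rows were listed at means of 13.6 to 46.6. How many reads this left out of each gene was not tested.

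Bases that differ between the mtDNA-encoded transcripts and the copy are shown because a read that covers one fits the 2 loci unequally. Positions count from 1 at the 5′ end of the mtDNA-encoded transcript, and the differing base is in capitals. The start of mt-Nd3 and of its copy differ by T3C.
mt-Nd3: atTaacctgtacactgttatcttcatt
Gm28438: atCaacctgtacactgttatcttcatt
The copy of the end of mt-Co1 begins close to the difference A1066T and then runs on without another.
mt-Co1: ggaAttgttttatccaac
Gm29216: ggaTttgttttatccaac
At the other end, the match of mt-Nd4 stops after base 876. Bases 847 to 876, which are shared with Gm28439, are in capitals here, and the bases that follow have no counterpart in that pseudogene.
mt-Nd4: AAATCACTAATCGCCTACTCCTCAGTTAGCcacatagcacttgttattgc

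**Figure D3:**
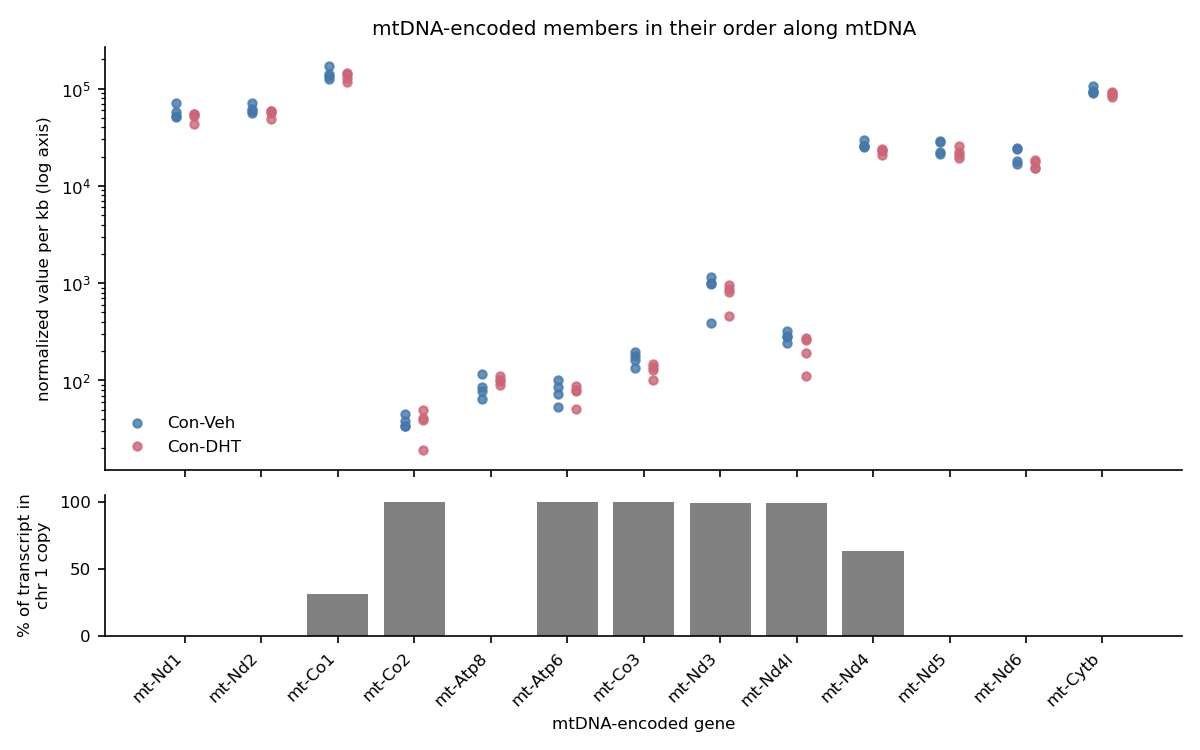
Upper panel, normalized value per kb (log axis) of the 13 mtDNA-encoded members in their order along mtDNA, each point 1 liver. Lower panel, percent of each transcript that aligns over at least 150 bases to an annotated pseudogene of the run on chromosome 1. The genes from mt-Co2 to mt-Nd4l reach at most 1158 per kb in any liver and the others are at 15083 per kb or more, and the groups are close to each other in every gene.

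Among the nuclear members, complex I had the most genes (37) and none passed the test. The 7 core subunits, which carry the flavin and the iron-sulfur clusters, had a median log2 fold change of 0.079 and the 30 accessory ones 0.0096. The highest log2 fold change of the complex was that of Ndufs1, an iron-sulfur subunit of the electron input arm, with values of 1601, 1519, 1554 and 1570.1 in Con-Veh and 1669, 1904, 1718 and 1711 in Con-DHT (log2 fold change 0.16, SE 0.06, adjusted p = 0.16). All Con-DHT livers were above all Con-Veh livers, and the gene was called only when libraries were scaled to an equal total (log2 fold change 0.26, adjusted p = 0.026 and 0.029 in limma with the 2 scalings). The same separation held for Ndufs4, an accessory subunit of that arm, at 539.8, 542, 563 and 524 in Con-Veh and 586, 619, 574 and 592 in Con-DHT (log2 fold change 0.13, SE 0.06, adjusted p = 0.27). Ndufv3, another accessory subunit, was separated the other way at 728, 716, 714 and 765 in Con-Veh and 702, 708, 655 and 642 in Con-DHT (log2 fold change -0.11, SE 0.07, adjusted p = 0.36). Per kb, Ndufa4 had the highest level of the nuclear members with a complex I name (3568), at 2077, 2006, 2101 and 2273 in Con-Veh and 2227, 2201, 2152 and 2376 in Con-DHT, and its hypoxia-inducible paralog Ndufa4l2 the lowest (15.1), at 14.3, 14.5, 12.98 and 12.2 in Con-Veh and 15.7, 23.2, 7.14 and 13.04 in Con-DHT. Con-DHT replicate 2 was the highest and replicate 3 the lowest for Ndufa4l2, and neither paralog passed the test.

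The lowest log2 fold change among all nuclear members was that of Ndufs5, a small accessory subunit of complex I, and it came from single livers. Its values were 517, 536, 317 and 562 in Con-Veh and 531, 132, 553 and 363 in Con-DHT (log2 fold change -0.45, SE 0.40, adjusted p = 0.55). Con-Veh replicate 3 and Con-DHT replicates 2 and 4 were low, and the other livers lay between 517 and 562. A processed pseudogene on chromosome 16, BC002163, showed the mirror image, at 10.99, 4.83, 127 and 8.703 in Con-Veh and 15.7, 269, 6.12 and 126 in Con-DHT. It took 28.5% of the pair's summed value in Con-Veh replicate 3, 67.2% in Con-DHT replicate 2 and 25.8% in Con-DHT replicate 4, and at most 2.87% in each of the other 5 livers. The sum of gene and pseudogene was 521 ± 54.2 in Con-Veh and 499 ± 72.2 in Con-DHT.

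By its annotated transcript, BC002163 matches 319 of the 680 bases of the Ndufs5 transcript at 99.4% identity, and the only differences are T328C and A352G, both in the coding sequence (positions from 1 at the 5′ end of the transcript). They are shown because a read inside the matched stretch that covers neither fits both transcripts, and the differing base is in capitals.
Ndufs5: gcagaacagccctaTaagaacgccgctcg
BC002163: gcagaacagccctaCaagaacgccgctcg
Ndufs5: gctcggtgccacgcAtttgaaaaagagtg
BC002163: gctcggtgccacgcGtttgaaaaagagtg
The bases that the 8 mice carry at these positions were not analysed here, and the change of Ndufs5 is uncertain. In all, 22 of the 81 nuclear members have a transcript elsewhere with at least 95% identity over at least 150 bases, mostly processed pseudogenes. For 6 of the 22 such a copy has a row in the table (those of Atp5g1, Atp5l, Cox7a2l, Cox7c, Ndufa12 and Ndufs5), and apart from BC002163 their values were at most 69.6 in every library. Cox7a2 has no such copy.

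**Figure D4:**
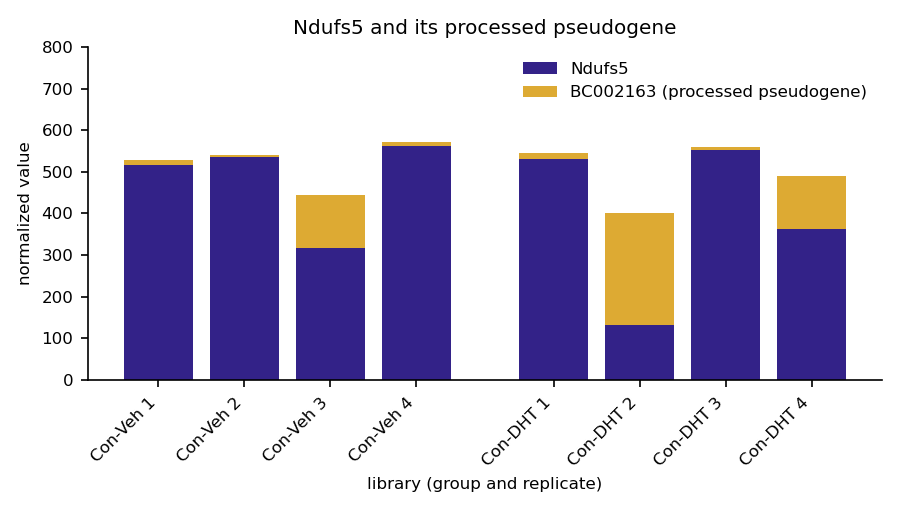
Normalized value of Ndufs5 (dark) and of its processed pseudogene BC002163 (light) in each library, stacked from 0. The pseudogene takes 67.2% of the pair in Con-DHT replicate 2 and over 25% in Con-Veh replicate 3 and Con-DHT replicate 4, and is a thin band in the other 5 livers.

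Complex II, the only complex without an mtDNA-encoded subunit, had its highest log2 fold change in the flavoprotein Sdha, which oxidizes succinate, with values of 6067, 7187, 7098 and 6764 in Con-Veh and 8065, 8593, 7447 and 7056 in Con-DHT (log2 fold change 0.20, SE 0.09, adjusted p = 0.22). Con-DHT replicates 1 to 3 were above all Con-Veh livers and replicate 4 was inside their range. The membrane anchor Sdhc had the lowest log2 fold change, with values of 2011, 2200.4, 2206 and 2369 in Con-Veh and 1746, 2174, 2092 and 1862 in Con-DHT (log2 fold change -0.16, SE 0.09, adjusted p = 0.30). Neither passed the test, and Sdhb and Sdhd lay between them. Per kb, Sdha was the highest (2512) and Sdhc the lowest (657) of the 4.

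Of the 9 nuclear members of complex III, 8 had a 95% confidence interval within 1.2-fold. The small subunit Uqcr10 had the highest log2 fold change, with values of 838, 732, 868 and 865 in Con-Veh and 787, 836, 912 and 941 in Con-DHT (log2 fold change 0.07, SE 0.09, adjusted p = 0.66), and Uqcrq, another small subunit, the lowest, with values of 3549.6, 3516, 3455 and 3202 in Con-Veh and 3018, 3261, 3308 and 3201 in Con-DHT (log2 fold change -0.10, SE 0.07, adjusted p = 0.40). The groups overlapped in both. By level per kb the nuclear members ran from Uqcrc2, a core protein (1409.9), to the small subunit Uqcr11 (2895), for which the values were 1259, 1181, 1325 and 1304 in Con-Veh and 1202, 1331, 1332 and 1373 in Con-DHT. For Uqcrc2 they were 2439, 2665, 2860.04 and 2658 in Con-Veh and 2718, 2934, 2507 and 2606 in Con-DHT.

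Complex IV held the only member that passed the test. Cox7a2 encodes the form of subunit VIIa used in liver and most other tissues, and its values were 680.5, 685, 724 and 758 in Con-Veh and 828, 926, 925 and 904 in Con-DHT. Every Con-DHT liver was above every Con-Veh liver, and the value rose 1.26-fold (95% confidence interval 1.13 to 1.40), the means being 712 ± 36.4 in Con-Veh and 896 ± 46.3 in Con-DHT (limma, log2 fold change 0.33, SE 0.07, adjusted p = 0.02). Adjusted p was 0.019 in edgeR and 0.0019 in DESeq2. The call was lost with spike-in scaling (log2 fold change 0.53, adjusted p = 0.58 in limma) and with the correction for length and GC content (0.23, adjusted p = 0.099), without Con-Veh replicate 2 (adjusted p = 0.061) and without Con-DHT replicate 2 (adjusted p = 0.059), and 13 of 15 alternatives on all 8 libraries kept it.

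Its relative Cox7a2l, which encodes a factor that joins complexes III and IV into supercomplexes, lay on the other side. Its values were 1145, 1165, 1076 and 1137 in Con-Veh and 965, 1041, 972 and 971 in Con-DHT, and all Con-DHT livers were below all Con-Veh livers, but the change did not pass the test (log2 fold change -0.20, SE 0.06, adjusted p = 0.091). It was called under the correction for length and GC content alone (log2 fold change -0.23, adjusted p = 0.0499 in limma). Of the summed value per kb of the 2 genes, Cox7a2 made up 49.2, 49.0, 52.3 and 52.1% in Con-Veh and 58.3, 59.2, 60.8 and 60.3% in Con-DHT, without overlap, or 50.7 ± 1.81% against 59.7 ± 1.12%. This share does not change when a library is scaled as a whole. With Cox7a2 higher and Cox7a2l lower in every Con-DHT liver, it had to separate the groups, so it adds no support to either change.

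**Figure D5:**
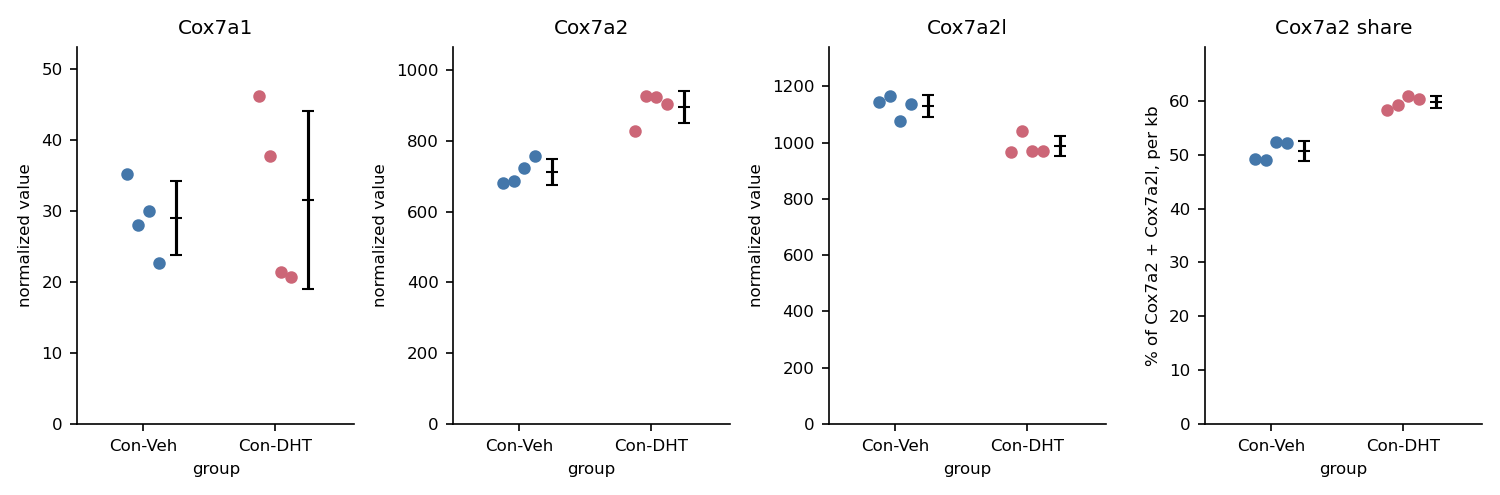
Normalized values of Cox7a1, Cox7a2 and Cox7a2l and the share of Cox7a2 in the summed value per kb of Cox7a2 and Cox7a2l, each point 1 liver, with the mean and SD of each group in black. Cox7a2 and its share are higher and Cox7a2l is lower in all 4 Con-DHT livers than in all 4 Con-Veh livers, and the few Cox7a1 transcripts split by liver within Con-DHT.

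The other forms of the complex IV subunits that liver uses were close between the groups. Cox4i1, a regulatory subunit, was at 6370.4, 6145, 6717 and 6516 in Con-Veh and 5822, 6179, 6038 and 6378 in Con-DHT (log2 fold change -0.08, SE 0.07, adjusted p = 0.55), and Cox6a1, the nuclear member of highest level per kb in the complex (8251), at 4399, 4497, 4845 and 4625 in Con-Veh and 4542, 4986, 4837 and 4961 in Con-DHT (log2 fold change 0.07, SE 0.07, adjusted p = 0.57). Cox6b1 was at 1343, 1344, 1497 and 1399 in Con-Veh and 1472, 1537, 1569 and 1507 in Con-DHT and Cox8a at 1738, 1644, 1789 and 1889 in Con-Veh and 1737, 1833, 1805 and 1763 in Con-DHT, and neither passed the test. The groups overlapped in all of these genes.

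The forms known from muscle, brown fat or testis were near the bottom of the table and followed single livers. Cox7a1, the heart and muscle form of subunit VIIa, was at 35.2, 27.99, 29.9 and 22.6 in Con-Veh and 46.1, 37.7, 21.4 and 20.7 in Con-DHT. Cox8b, the heart and muscle form of subunit VIII, was at 48.4, 33.8, 29.9 and 20.9 in Con-Veh and 52.00, 67.7, 13.3 and 13.04 in Con-DHT. Both were highest in Con-DHT replicates 1 and 2 and Con-Veh replicate 1 and lowest in Con-DHT replicates 3 and 4. The brown fat gene Ucp1 ran the same way, at 215, 115, 107 and 87.03 in Con-Veh and 246, 272, 4.08 and 7.61 in Con-DHT. Skeletal muscle transcripts did not, since Myh4, a fast muscle myosin, was at 2.199, 97.5, 0 and 0 in Con-Veh and 0.981, 0, 993 and 467 in Con-DHT, high in the livers where Cox7a1 and Cox8b were low. Over the 4 adipocyte markers listed (Adipoq, Plin1, Lep and Ucp1, of which 0 were called) the summed value was 277 to 518 in Con-Veh and 300.1 to 581 in Con-DHT, and over the 4 muscle markers (Ckm, Acta1, Myh4 and Tnnt3, 0 called) 6.99 to 191 and 8.83 to 1728, with Ckm, Myh4 and Tnnt3 at 0 in 2 or more libraries. Other adipocyte markers did not follow Ucp1. Adipoq was highest in Con-DHT replicates 3 and 4 (228 and 289), where Ucp1 was lowest. Plin1 and Lep were highest in Con-DHT replicate 4 (172 and 30.4) and lowest in Con-DHT replicate 3 (67.4 and 1.02). The part of fat or muscle tissue in the values of Cox7a1 and Cox8b was not tested. Cox6b2, the testis form, had the lowest level per kb of its nuclear members (44.5) and stood at 17.6, 19.3, 46.9 and 28.7 in Con-Veh and 12.8, 16.5, 28.6 and 38.05 in Con-DHT, with Con-Veh replicate 3 the highest.

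Complex V had the nuclear member of highest level per kb. This was Atp5b, the catalytic beta subunit (9144), which also had the highest log2 fold change of the nuclear members of the complex, with values of 16072, 16148, 17959.8 and 16596 in Con-Veh and 17572, 19212, 18571 and 18025 in Con-DHT (log2 fold change 0.14, SE 0.09, adjusted p = 0.38), with overlap. Atp5j2, a small membrane subunit, was at 1032, 1005, 1046 and 1064 in Con-Veh and 1075, 1166, 1146 and 1141 in Con-DHT (log2 fold change 0.13, SE 0.06, adjusted p = 0.24), with all Con-DHT livers above all Con-Veh livers, and was called only with equal totals (log2 fold change 0.23 and 0.22, adjusted p = 0.045 and 0.0496 in limma). Atp5s had the lowest level per kb (58.5), at 100.04, 90.7, 81.9 and 115 in Con-Veh and 86.3, 95.8, 74.5 and 104 in Con-DHT.

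The ring of the ATP synthase is built from subunit c, which Atp5g1, Atp5g2 and Atp5g3 encode with the same mature protein behind different import sequences. Atp5g1 had the lowest log2 fold change of the complex, with values of 2035, 1907, 2078 and 2072 in Con-Veh and 1633, 1715, 1839 and 1928 in Con-DHT (log2 fold change -0.19, SE 0.07, adjusted p = 0.15), and Con-DHT replicate 4 was inside the Con-Veh range. Atp5g2 was at 945, 1040.4, 1070.1 and 1022 in Con-Veh and 944, 944, 1032 and 928 in Con-DHT (log2 fold change -0.08, SE 0.07, adjusted p = 0.52). Atp5g3, by reads the most abundant of the 3, was at 3923, 3588, 4149 and 3994 in Con-Veh and 3787, 4023, 3970.2 and 4082 in Con-DHT (log2 fold change 0.02, SE 0.07, adjusted p = 0.90). Atp5g2 has processed pseudogenes that match up to 88.2% of its transcript without a difference. Atp5g1 has one that matches 411 bases with 1 difference, which is 8.72% of its long transcript of 4715 bases. The levels of both genes are therefore uncertain.

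Nuclear respiratory genes are known to share promoter sites for NRF1, for the ETS factor GABPA (NRF2) and for YY1. RefSeq promoters (GRCm38.p6, 250 bases before to 50 after the start) were found for 65 of the 81 nuclear members. The NRF1 motif (GCGC, any base, T and GCGC again), on either strand, was in promoters of 17 of the 65 genes (26.2%), against 10.9% of 10614 genes of the table with a promoter and 5.19% of all 27025 genes. The GABPA core CCGGAAG was in 16 (24.6%, against 18.9% and 9.93%) and the YY1 core AAGATGG in 10 (15.4%, against 8.13% and 7.28%), and no one of these motifs contains another. In all, 37 of the 65 held at least 1 of the 3, and the share of other genes that do was not computed. The promoter of Cox7a2, the member that passed the test, held none, and that of Sdha held 3 NRF1 matches. The 120 bases before the Cox7a2 start and the 150 before the Sdha start are shown on the coding strand, with motif matches in capitals.
Cox7a2, chr9:79759854-79759973, minus strand: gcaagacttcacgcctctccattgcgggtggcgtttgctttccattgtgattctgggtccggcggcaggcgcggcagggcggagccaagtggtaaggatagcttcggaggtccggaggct
Sdha, chr13:74350241-74350390, minus strand: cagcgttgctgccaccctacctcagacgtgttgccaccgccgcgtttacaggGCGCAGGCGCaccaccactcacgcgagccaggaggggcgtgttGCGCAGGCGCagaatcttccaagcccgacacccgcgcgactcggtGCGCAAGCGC

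Genes that build, regulate or supply the machinery were followed in 6 lists. Of 54 tested assembly factors 1 rose and none fell (1.85%, against 7.21% of all tested genes), with a median log2 fold change of -0.018. That gene was Atpaf1, which helps to assemble the F1 part of the ATP synthase, at 185, 191, 193 and 247 in Con-Veh and 259, 298, 257 and 284 in Con-DHT (log2 fold change 0.43, SE 0.11, adjusted p = 0.044), without overlap between the groups. Leaving out any of 7 libraries (all but Con-Veh replicate 4) ended the call. Of 32 genes of mtDNA maintenance, transcription and RNA processing 1 rose and 1 fell (6.25%, close to the 7.21% of all tested genes), with a median of 0.046. Top1mt, the topoisomerase of mtDNA, fell and was at 426 ± 38.6 in Con-Veh and 306 ± 14.4 in Con-DHT (log2 fold change -0.47, SE 0.09, adjusted p = 0.011). Rexo2, an exonuclease that clears short RNAs in mitochondria, rose and was at 1129.95 ± 35.8 in Con-Veh and 1502 ± 161 in Con-DHT (log2 fold change 0.40, SE 0.08, adjusted p = 0.019). Each was separated between the groups, with Top1mt at 371 to 462 against 288 to 320 (319.6 at most) and Rexo2 at 1077 to 1156 against 1276 to 1651. Spike-in scaling ended the calls of Top1mt, Rexo2 and Atpaf1 (adjusted p = 0.92, 0.42 and 0.40 in limma). Leaving out Con-DHT replicates 3 and 4, which held skeletal muscle transcripts, also ended them (adjusted p = 0.068, 0.12 and 0.14 in limma). The log2 fold changes in that smaller fit were -0.46, 0.33 and 0.45. It called 475 of all 14312 tested genes, against 1032 with all libraries. The call of Rexo2 was also lost without Con-DHT replicate 2 (adjusted p = 0.057), and that of Top1mt was kept whichever single library was left out.

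The mtDNA packaging factor Tfam was at 668 ± 35.6 in Con-Veh and 654 ± 35.01 in Con-DHT (log2 fold change -0.03, SE 0.07, adjusted p = 0.84) and the mitochondrial RNA polymerase Polrmt at 466 ± 36.2 in Con-Veh and 454 ± 35.9 in Con-DHT (log2 fold change -0.04, SE 0.09, adjusted p = 0.84). Of 15 tested nuclear regulators of respiratory genes 0 passed the test (median -0.0050, 3 at an unadjusted p of at most 0.05, and 0 in edgeR and 2 in DESeq2). Over all tested genes, which such counts have to be read against, the shares were 7.21% in limma, 23.2% unadjusted, 7.15% in edgeR and 11.0% in DESeq2. Ppargc1a, a coactivator of mitochondrial biogenesis, varied widely within both groups, at 459.5, 274, 367 and 200.2 in Con-Veh and 208, 422, 353 and 209 in Con-DHT (log2 fold change -0.13, SE 0.29, adjusted p = 0.84). Of 24 genes of the TCA cycle and pyruvate dehydrogenase 0 passed (median 0.061, 7 at an unadjusted p of at most 0.05, 0 in edgeR and 3 in DESeq2), with citrate synthase, Cs, at 1614 ± 83.97 in Con-Veh and 1519.7 ± 154 in Con-DHT. Of 26 electron carriers, coenzyme Q genes and inner membrane carriers 0 passed (median 0.013, 5 unadjusted, 0 in edgeR and 2 in DESeq2), with cytochrome c, Cycs, at 1358 ± 163 in Con-Veh and 1518 ± 233 in Con-DHT. Of 22 genes of import, proteostasis and membrane structure 0 passed (median 0.017, 2 unadjusted, 0 in edgeR and 1 in DESeq2), with the outer membrane channel Vdac1 at 2732 ± 204 in Con-Veh and 2771 ± 249 in Con-DHT.

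The mitochondrial ribosomal RNAs, from the same mtDNA strand, were at 22573, 26584, 29802 and 24086 in Con-Veh and 28904, 21967, 19878 and 16568 in Con-DHT for mt-Rnr1 (log2 fold change -0.26, SE 0.17, adjusted p = 0.40) and at 37495, 46413, 52021 and 49921 in Con-Veh and 42756, 36629.5, 31023 and 28115 in Con-DHT for mt-Rnr2 (log2 fold change -0.43, SE 0.16, adjusted p = 0.15). Both were highest in Con-Veh replicate 3 and lowest in Con-DHT replicate 4, and the groups overlapped. DESeq2 called mt-Rnr2 (adjusted p = 0.049). The proline tRNA gene mt-Tp, at 1896, 1803, 2057 and 1761 in Con-Veh and 1663, 1553, 1501 and 1277 in Con-DHT, was lower in all Con-DHT livers than in all Con-Veh livers and did not pass the test (log2 fold change -0.33, SE 0.09, adjusted p = 0.057). It was called in DESeq2 (adjusted p = 0.022) and under the correction for length and GC content (log2 fold change -0.75, adjusted p = 0.00097 in limma).

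The cytosolic ribosomal proteins, another large set of short and abundant housekeeping transcripts, are set beside the OXPHOS genes. Of 80 tested, 16 fell (20%, against 2.61% of all tested genes) and none rose. All 80 had log2 fold changes below 0 under the deposited scaling, and the median was -0.28, against 0.020 and 47 of 81 above 0 for the nuclear OXPHOS members. The count called was 9 in edgeR and 29 in DESeq2, and it depended on the scaling: 2 fell with equal totals, 0 passed with spike-in scaling (median -0.083) and 52 with the correction for length and GC content. Over all tested genes, equal totals called 1290 or 1251, spike-in scaling 637 and the correction 1159. The difference between the 2 sets was not tested.

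The summed markers of Kupffer cells and of sinusoidal endothelium were lower in Con-DHT, while those of the other cell types with values overlapped between the groups. The summed value of 6 Kupffer cell markers was 5357 to 6766 in Con-Veh and 3636 to 4932 in Con-DHT, with 3 of 6 called (Clec4f, Vsig4 and Cd5l, all lower), and that of 5 markers of sinusoidal endothelium 3511 to 3868 and 2739 to 3228, with 2 of 5 called (Stab2 and Lyve1, both lower). Over all tested genes 2.61% were called lower. The endothelial markers Ptprb and Kdr hardly changed (log2 fold change -0.038 and 0.00026). In bulk tissue fewer cells of a type and less RNA per cell cannot be told apart, and the part of Kupffer and endothelial cells in the values of the OXPHOS genes was not tested. The 5 hepatocyte markers with a row (Alb, Apoa1, Ttr, Serpina3k and Apob) summed to at least 808398 in every library, with 0 called. Of 6 stellate cell markers, 5 of cholangiocytes and 4 of red cells 0 were called, with sums of 1400.4 to 4786 and 1877 to 2240.4, of 881 to 1049 and 856 to 1174, and of 4360 to 10744 and 4047 to 8128. Lymphocyte and neutrophil markers were not analysed here.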

How the data were processed

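Liver RNA from 4 Con-Veh and 4 Con-DHT mice was sequenced, 1 library per mouse. The authors trimmed the reads (Trimmomatic), aligned them with STAR, counted uniquely mapped exon reads with featureCounts (Subread) and used DESeq2. The values they deposited are a normalized signal, gene-wise reads over a library size factor. The labels name GRCm39, while symbols, lengths, pseudogenes and promoters here came from GENCODE M21 and RefSeq (GRCm38). Divided by each library's step, 100% of values lay within 0.01 of a whole number of reads. The step of Con-Veh replicate 3 was close to 1 (0.998), and before division 2.26% of its values were whole by the same tolerance.

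The main test was limma 3.58.1 (intensity trend, R 4.3.3) on log2(value + 1) for the 14312 mouse genes whose mean reached 10, Benjamini-Hochberg adjusted over all of them. Alternatives were other pseudocounts, filters and scalings, array weights, a length and GC correction (loess, span 0.5), a replicate block, edgeR 4.0.16 and DESeq2 1.42.0 on recovered reads, and leaving out libraries. Library pairs of a group differed by a chi-square per degree of freedom of 19.1 or more, so none was a duplicate. Nothing states that mice of the same number are related. Length is that of the principal transcript. Transcripts were aligned with blastn 2.17.0 (E-value at most 1e-20). The tests were tried on simulated data.

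Values in all libraries are given for the mtDNA-encoded members, for members that passed the test, for those with the highest and lowest fold change and level per kb in each complex, and for isoform families. Of the lists, genes that passed are named with Ppargc1a, Tfam, Polrmt, Cycs, Cs and Vdac1. Ndufs4, Ndufv3, Atp5j2 and mt-Tp were named after their values were seen. The members and lists were chosen with earlier results of these data known.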

Additional observations from a re-analysis of the deposited data

Results flagged for a closer look

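Of 104 groups of 4 livers examined for a value that stood apart, 6 were marked by Dixon's test at its 95% level, and chance marks about 1 in 20. The ratio of the mtDNA-encoded to the nuclear sum was 4.12 in Con-Veh replicate 4, against 3.39 to 3.46 in the other Con-Veh livers. In the same library mt-Nd4 was at 40803, against 34457 to 35409. Con-DHT replicate 3 was at 41148 for mt-Nd1, below 50069 to 51883 in the other Con-DHT livers, and at 1032 for Atp5g2, above 928 to 944. Atpaf1 was at 247 in Con-Veh replicate 4, above 185 to 193 in the other Con-Veh livers. Cox7a2l was at 1041 in Con-DHT replicate 2, above 965 to 972, and all 4 Con-DHT values were below the lowest Con-Veh value of 1076.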

How the results depend on the processing

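No mtDNA-encoded member passed the test under any alternative, and the count of nuclear members called stayed at 1 except as given here. Over all 14312 tested genes, the main test called 1032, and the scalings to equal totals 1290 and 1251. Spike-in scaling called 637, the length and GC correction 1159, DESeq2 1569, edgeR 1024 and quantile normalization 996. There were 856 without the intensity trend, 1130 with array weights, 1035 with an equal upper quartile and 648 of 10725 with a mean of at least 50. The log2 difference of the ratio of sums stayed below 0, between -0.23 and -0.10. Scaling a library as a whole cannot change it, so only quantile normalization and leaving out libraries were able to move it. Both scalings to equal totals (leaving out the Mup genes, or mtDNA-encoded genes as well) called 3 nuclear members, 2 assembly factors, 1 regulator, 1 carrier and 1 import gene, 4 and 3 TCA cycle genes and 2 ribosomal proteins, with nuclear medians of 0.12. Spike-in scaling called 0 nuclear members, 0 assembly factors, 0 mtDNA maintenance genes and 0 ribosomal proteins, with medians of 0.22 for nuclear and 0.050 for mtDNA-encoded members, while the median over all genes moved to 0.19. The length and GC correction gave a nuclear median of -0.091 and 52 ribosomal proteins. DESeq2 called 2 assembly factors, 2 regulators, 3 TCA cycle genes, 2 carriers, 1 import gene and 29 ribosomal proteins, and edgeR 9 ribosomal proteins. Quantile normalization called 1 regulator, 2 TCA cycle genes and 5 ribosomal proteins. Without the intensity trend 0 assembly factors and 2 ribosomal proteins were called, with array weights 0 assembly factors, and 10 ribosomal proteins with a mean of at least 50 or an equal upper quartile.

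With the replicate number as a block, 0 assembly factors, 1 TCA cycle gene, 1 carrier and 3 ribosomal proteins were called, and 1 nuclear and 0 mtDNA-encoded members. That fit called 700 of all tested genes. The deviations of same-numbered livers correlated at -0.19 to -0.0060, and those of differently numbered livers at -0.16 to 0.26. With 4 livers in a group, such correlations cannot show whether the numbers pair the mice. Cox7a2 had an adjusted p of 0.047 in the fit with the block (limma). Without Con-DHT replicates 3 and 4, which held skeletal muscle transcripts (an alternative chosen after seeing the data), 0 nuclear members (Cox7a2 0.30, adjusted p = 0.12 in limma), 0 assembly factors, 0 mtDNA maintenance genes and 34 ribosomal proteins were called. Of all tested genes, 475 were called in that fit. Among the 7 mtDNA-encoded members listed above 5000, 0 were called. Leaving out each library in turn gave 0 to 1 nuclear members, 0 to 1 assembly factors, 1 to 3 mtDNA maintenance genes, 0 to 1 regulators, 0 to 1 TCA cycle genes, 0 to 1 carriers and 2 to 31 ribosomal proteins. Over all tested genes these fits called 633 to 905. The call of Cox7a2 was lost without Con-Veh or Con-DHT replicate 2. The causes of these shifts were not tested.

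Among the genes with a fold change in the text, the sign changed only for genes that had not passed the test. With spike-in scaling the log2 fold change became 0.011 for Atp5g1, 0.12 for Atp5g2, 0.095 for Atp5s, 0.12 for Cox4i1, 0.0030 for Cox7a2l, 0.029 for Cox8b, 0.088 for Ndufv3, 0.16 for Polrmt, 0.069 for Ppargc1a, 0.038 for Sdhc, 0.17 for Tfam, 0.098 for Uqcrq, 0.13 for mt-Atp6, 0.10 for mt-Co1, 0.10 for mt-Co2, 0.073 for mt-Cytb, 0.014 for mt-Nd1, 0.050 for mt-Nd2, 0.074 for mt-Nd3 and 0.012 for mt-Nd5, and 79 of all 81 nuclear members were above 0. With equal totals that leave out the Mup genes it became 0.015 for Atp5g2, 0.022 for Cox4i1, 0.060 for Polrmt, 0.066 for Tfam, 0.030 for mt-Atp6, 0.0037 for mt-Co1 and 0.0083 for mt-Co2. Leaving out mtDNA-encoded genes from those totals as well gave 0.012 for Atp5g2, 0.019 for Cox4i1, 0.058 for Polrmt, 0.064 for Tfam, 0.027 for mt-Atp6, 0.0010 for mt-Co1 and 0.0057 for mt-Co2. The length and GC correction gave -0.065 for Atp5g3, -0.091 for Cox6a1, -0.13 for Cox7a1, -0.13 for Cox8a, -0.056 for Ndufa4, -0.078 for Ndufa4l2, -0.088 for Uqcr10, -0.13 for Uqcr11 and -0.021 for mt-Atp8. Without Con-DHT replicates 3 and 4 it was -0.0018 for Atp5g3, 0.88 for Cox8b, 0.022 for Tfam, -0.022 for Uqcr10, -0.0015 for Uqcr11, 0.13 for mt-Atp6, 0.016 for mt-Co1 and 0.27 for mt-Co2. Quantile normalization gave -0.064 for Cox7a1 and -0.23 for Ndufa4l2. Ppargc1a was at 0.018 with array weights. Cox8b was at 0.0057 with array weights, 0.16 in edgeR and 0.14 in DESeq2. Over the libraries left out in turn the range crossed 0, from -0.021 to 0.049 for Atp5g3, -0.49 to 0.036 for Cox6b2, -0.15 to 0.22 for Cox7a1, -0.016 to 0.051 for Cox8a, -0.58 to 0.18 for Cox8b, -0.22 to 0.30 for Ndufa4l2, -0.68 to 0.0082 for Ndufs5, -0.087 to 0.014 for Polrmt, -0.34 to 0.059 for Ppargc1a, -0.065 to 0.0030 for Tfam, -0.023 to 0.055 for Uqcrc2, -0.23 to 0.10 for mt-Atp6, -0.24 to 0.19 for mt-Co2 and -0.48 to 0.11 for mt-Nd3.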

Other observations

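The spread of the mtDNA-encoded genes followed single livers. For the 7 mtDNA-encoded members listed above 5000, the median deviation from the mean of all libraries was 0.31 on the log2 scale in Con-Veh replicate 4 and -0.26 in Con-DHT replicate 3, and between -0.059 and 0.059 in the other 6 livers. For the 81 nuclear members it was between -0.075 and 0.048 in all 8 livers, with Con-DHT replicate 1 the lowest and Con-DHT replicates 2 and 4 the highest, at 0.048 each. The libraries at the ends of the mtDNA-encoded range were at 0.021 and 0.0026 for the nuclear members.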
